A study of Mus musculus with 12 samples.

Results

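The distal 10 Mb of mouse chromosomes 4, 9 and 13 were described from DMC1 single-stranded DNA sequencing of testis in wild type and Ankrd31 knockout mice. All hotspots centred on chromosome 4 from 146.5 Mb, on chromosome 9 from 114.6 Mb and on chromosome 13 from 110.4 Mb (mm10) were taken, and the choice used position alone. They numbered 350 of the 35514 hotspots in both lists, 168 of 13480 on the wild type side and 182 of 22034 on the knockout side. The series has 12 samples, of which 2 per genotype are DMC1 samples of whole testis from adult males. The wild type mice were of the strain C57BL/6JCrl (B6). The knockout mice carried the allele Ankrd31 tm1Atot, given as their strain, and no source used here names the strain they were bred on. H3K4me3 and input samples from younger males were not analysed here. Each genotype has 1 hotspot list with no replicate columns, so differences between genotypes have no replicate check and no p-value, and every interval below covers counting error only. Since the strain of the knockout mice is not named, strain and genotype cannot be told apart on any chromosome. Ankrd31 itself lies on chromosome 13, proximal to the end described. Whether the DNA linked to the allele there is of another strain is not given.

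During meiosis, the enzyme SPO11 cuts DNA, and the recombinase DMC1 coats the single-stranded DNA at each break. Sequencing this DNA marks hotspots, the places where recombination starts, and its amount follows both how often breaks form and how long DMC1 stays on them, which cannot be told apart. In mice, the histone methyltransferase PRDM9 places most hotspots at its binding motif, and breaks at promoters are known from mice in which that placement fails. ANKRD31 is a partner of REC114, part of the machinery that makes breaks. The ends of chromosomes 4, 9 and 13 are known for arrays of the mo-2 minisatellite, a repeat also found beside the pseudoautosomal region, where break-forming proteins gather in large clusters.

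A hotspot's strength is its reads minus the background reads, as the authors deposited it. Hotspots of both lists that overlapped by at least 1 bp are called shared. All others are wild-type-only or knockout-only, in the sense of the lists, whose weakest hotspots had strengths of 18 (wild type) and 16 (knockout). Those lay on other chromosomes. The weakest had 35 and 37 in the 3 ends, and 26 and 32 on the rest of chromosomes 4, 9 and 13. A hotspot that is weak in a genotype can thus be missing from its list, and how many were was not tested. Shared hotspots were compared by relative strength, which is strength over the median of all autosomal hotspots shared by the lists (182 for the wild type, 151 for the knockout), and log2 values are knockout over wild type of that quantity. Distance was counted back from the point 10 Mb after the start of each end. A hotspot lay at a gene end when its centre was at most 1 kb from the first or last base of a protein-coding gene.

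Promoter sequences are shown because many knockout-only hotspots lay at gene starts between 4 and 10 Mb and few in the last 4 Mb. For each chromosome the 150 bases before 2 gene starts are printed, first that with the strongest knockout-only hotspot of the end and then that of the housekeeping gene nearest the chromosome's tip, which had no knockout-only hotspot. Ube4b (a ubiquitin ligase, chr4:149426632-149426781, minus strand), Azi2 (an adaptor of innate immune signalling, chr9:118040372-118040521, plus strand) and Gpbp1 (a transcription factor that binds GC-rich promoters, chr13:111490128-111490277, minus strand) had knockout-only hotspots of strength 284, 205 and 276 centred 74, 56 and 77 bp from their starts. Sdf4 (a calcium-binding protein of the Golgi, chr4:155993187-155993336, plus strand), Lztfl1 (a regulator of ciliary traffic, chr9:123717626-123717775, minus strand) and Zfp131 (a zinc finger protein, chr13:119790733-119790882, minus strand) lie 0.507, 0.882 and 0.609 Mb from the end points. Capitals mark GC boxes (GGGCGG) and CCAAT boxes (CCAAT) on either strand, in the order 5′ to 3′ toward the gene. The sequences are from RefSeq, mouse assembly GRCm38.p6.
Ube4b: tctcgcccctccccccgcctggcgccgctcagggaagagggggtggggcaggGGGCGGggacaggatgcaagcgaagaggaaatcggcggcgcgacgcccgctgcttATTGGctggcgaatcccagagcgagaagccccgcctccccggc
Sdf4: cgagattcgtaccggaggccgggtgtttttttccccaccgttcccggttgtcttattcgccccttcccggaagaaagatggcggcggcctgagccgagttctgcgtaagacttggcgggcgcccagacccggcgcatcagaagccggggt
Azi2: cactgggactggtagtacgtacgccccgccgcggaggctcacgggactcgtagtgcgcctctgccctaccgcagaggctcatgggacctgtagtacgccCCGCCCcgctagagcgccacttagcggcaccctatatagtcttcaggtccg
Lztfl1: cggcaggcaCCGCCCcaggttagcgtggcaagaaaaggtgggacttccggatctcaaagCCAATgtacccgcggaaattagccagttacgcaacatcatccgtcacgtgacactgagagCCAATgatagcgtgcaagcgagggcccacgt
Gpbp1: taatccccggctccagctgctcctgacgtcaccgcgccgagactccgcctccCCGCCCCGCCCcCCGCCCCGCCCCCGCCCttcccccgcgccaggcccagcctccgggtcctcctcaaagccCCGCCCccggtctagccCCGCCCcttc
Zfp131: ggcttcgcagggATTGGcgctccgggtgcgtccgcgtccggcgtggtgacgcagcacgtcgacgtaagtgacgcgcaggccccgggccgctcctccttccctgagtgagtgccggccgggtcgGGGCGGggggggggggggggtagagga
The stretches with a hotspot held 15 to 17 CpG and the stretches without held 12 to 20. GC boxes numbered 1, 1 and 7 in Ube4b, Azi2 and Gpbp1 and 0, 1 and 1 in Sdf4, Lztfl1 and Zfp131. The GC content was 72.7%, 65.3% and 78.7% against 63.3%, 57.3% and 75.3%, so that it was higher in the first stretch of each pair. Of all autosomal promoter windows of the same 150 bases, 38.8% held a GC box and 26.3% a CCAAT box. A match is a description of the letters only.

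**Figure D1:**
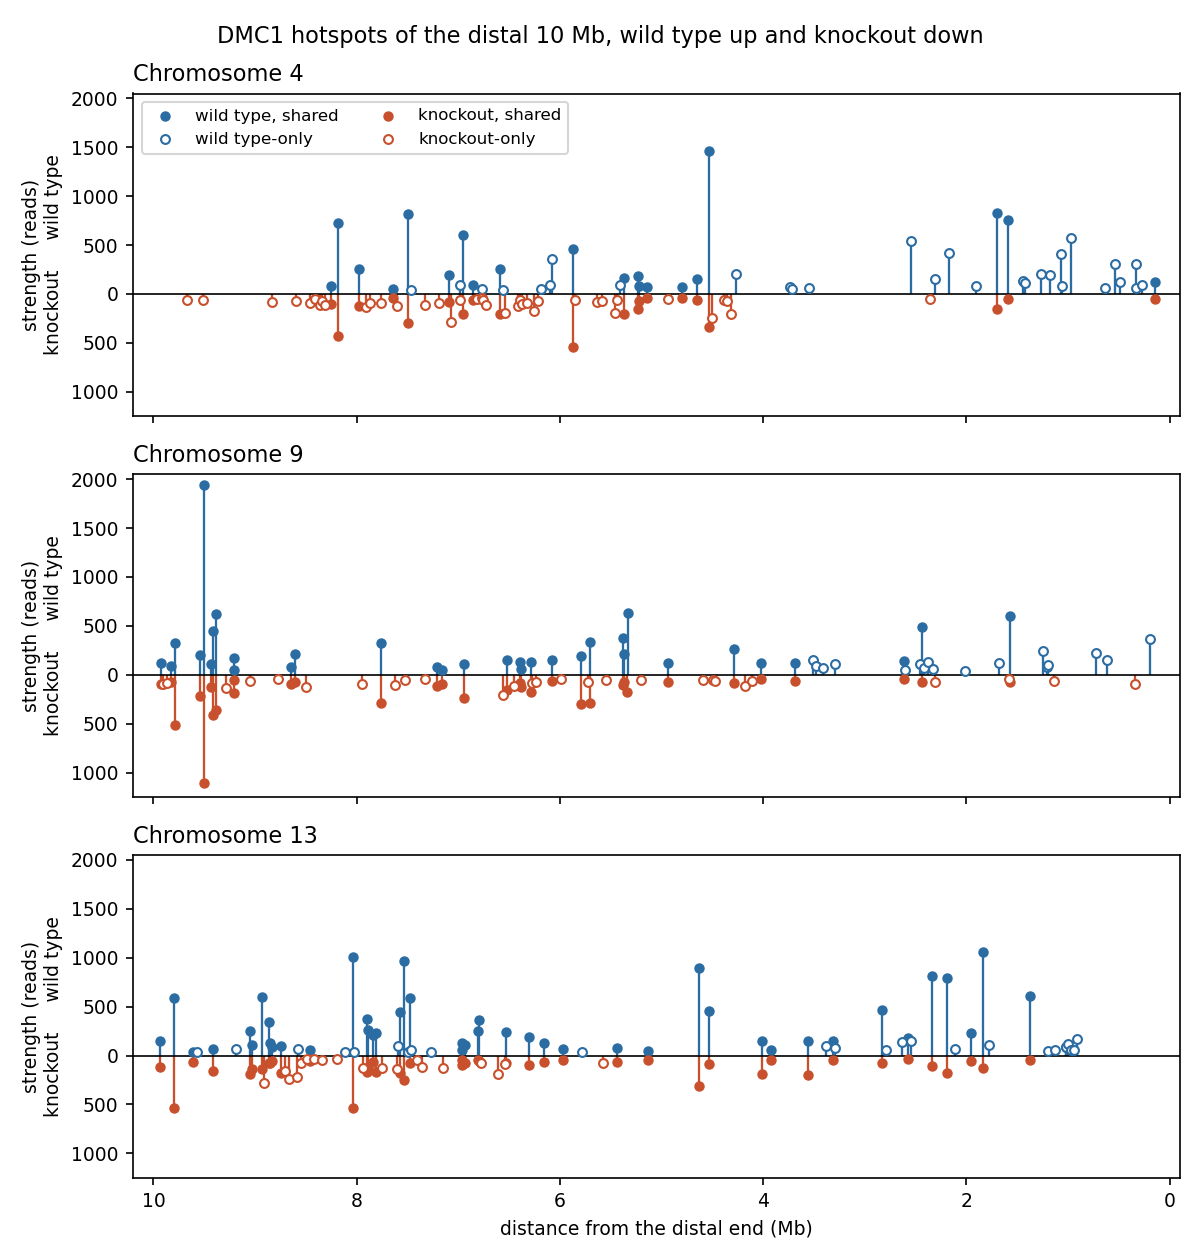
Strength (background-subtracted reads) of each hotspot against distance from the distal end in Mb, with wild type hotspots drawn upward and knockout hotspots downward, 1 panel per chromosome. Filled points are shared and open points are in 1 list only. Inside 4 Mb of the ends the upward lines reach 1056 and the downward lines 198.

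Over the 3 ends together, 97 hotspots were shared, which is 57.7% of the wild type hotspots (95% exact binomial interval 49.9 to 65.3). The other 71 wild type hotspots were wild-type-only, where 15.0% of all autosomal wild type hotspots had no partner. In the knockout list 85 hotspots, 46.7%, were knockout-only, against 47.4% over all autosomes. Of the shared hotspots, 35 were over 2-fold lower in relative strength and 6 over 2-fold higher, that is 36.1% and 6.19%. Over all autosomal shared hotspots these shares were 15.9% and 12.4%. The last 10 Mb of the other 16 autosomes, counted back from the last annotated gene, had similar values. There 64.9% of 966 wild type hotspots were shared, and 35.4% and 5.74% of 627 shared hotspots were over 2-fold lower and higher. Over 10 Mb the 3 ends thus differed little from other distal ends in these shares of changed hotspots.

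These totals hide a change along the last megabases. Within 4 Mb of the end points, a length chosen after seeing the data, the wild type list had 69 hotspots and the knockout list 22. Only 17 of the 69 were shared, 24.6% (15.1 to 36.5), against 87.0% (85.3 to 88.5) on the rest of the same chromosomes. Summed strength was 15157 against 1754 in the knockout, 11.6% of the wild type (11.01 to 12.16), against 91.8% on the rest of the chromosomes. The covered length behind these sums was 121 kb and 33.5 kb, and the mean strength of a hotspot was 220 and 79.7.

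The shared hotspots of the last 4 Mb were lower too. Of 17, 16 had a lower relative strength in the knockout, where 50.5% of all autosomal shared hotspots did, and 13 were over 2-fold lower while 0 were over 2-fold higher. Their median log2 was -1.93, against 0.06 on the rest of the 3 chromosomes. The 12 of these 17 at or above the wild type list's median strength had a median log2 of -2.37, against -0.40 for such hotspots on the rest. The last 4 Mb of the other 16 autosomes also had mostly lower values, in 136 of 165 shared hotspots. There 44.8% fell by more than 2-fold, against 76.5% in the 3 ends, and 2 hotspots rose by more than 2-fold. The 97 of the 165 at or above that median had a median log2 of -1.30. From 4 to 10 Mb the lists came closer in sharing and in sum. They had 99 wild type and 160 knockout hotspots, 80.8% of the wild type hotspots shared and a summed strength of 86.2% of the wild type. The median log2 was -0.26, but 27.5% of the 80 shared hotspots were over 2-fold lower, against 14.2% on the rest. The 44 at or above the wild type list's median strength had a median log2 of -0.94, against -0.40 on the rest. In this stretch of the other 16 autosomes the same 2 values were 32.0% and -0.94.

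The knockout share of the wild type sum was 5.36% in the last 1 Mb, 9.74% from 1 to 2 Mb, 13.2% from 2 to 3 Mb and 28.4% from 3 to 4 Mb. It was 56.6% from 4 to 5 Mb and lay between 77.2% and 103% in each bin beyond 5 Mb. Each of these bins held 10 to 23 wild type hotspots, so a single strong hotspot moves them. Sharing went from 90.0% of 10 wild type hotspots at 4 to 5 Mb to 30.8% of 13 at 3 to 4 Mb. These 2 bins also differed in wild type strength, with means of 389 and 96.5. At 4 to 5 Mb 6 hotspots reached the wild type list's median, and at 3 to 4 Mb 1 did, which was shared. The shared hotspots had a median log2 of -1.23 at 4 to 5 Mb and -0.32 at 3 to 4 Mb. The part of weak hotspots in the change in sharing was not tested.

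**Figure D2:**
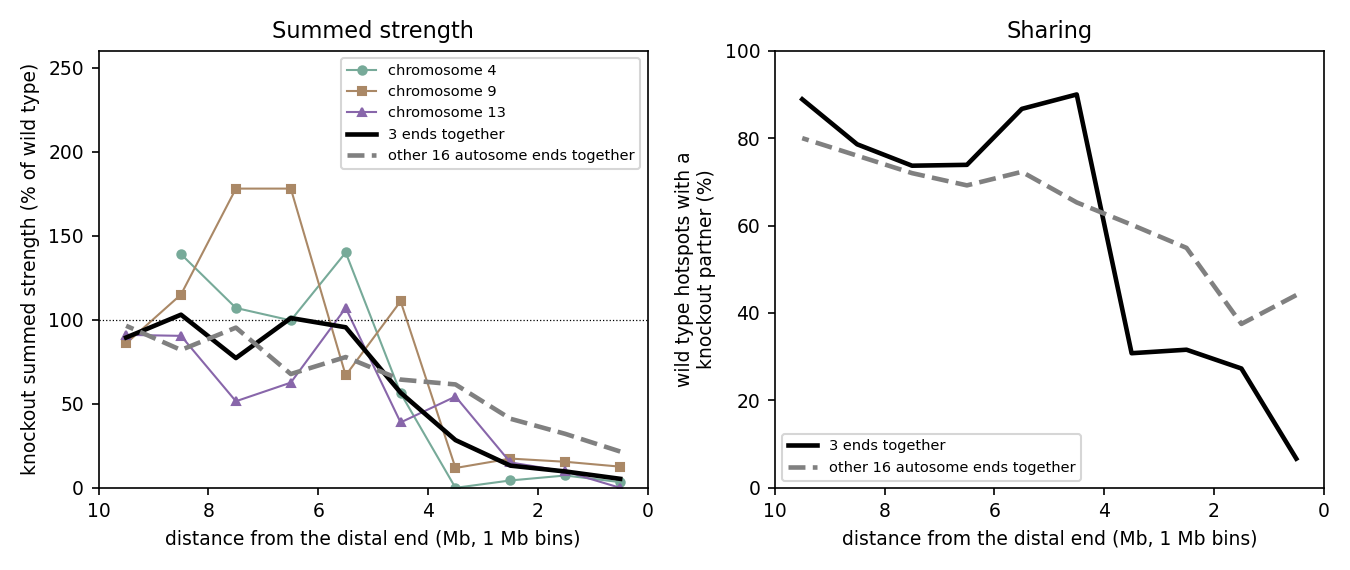
Left, knockout summed strength as percent of the wild type, and right, percent of wild type hotspots with a knockout partner, in 1 Mb bins by distance from the distal end. Thin lines are single chromosomes, the black line is the 3 ends together and the dashed line the other 16 autosome ends together. The black line lies at 5.36% in the last 1 Mb and the dashed line at 21.6%; chromosome 4 had no wild type hotspot at 9 to 10 Mb and so has no point there.

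Strong hotspots were among those without a partner. Of the 26 wild type hotspots of the last 4 Mb that reached the median strength of their list (152), 12 had a knockout partner. On the rest of the 3 chromosomes 872 of 898 did, and over all autosomes 2.92% of such hotspots had none. Other distal ends lay in between: in the last 4 Mb of the other 16 autosomes, 97 of 128 such hotspots had a partner. In the last 4 Mb of the 3 ends, background was 6.42% of wild type and 11.6% of knockout hotspot reads. On the rest of the 3 chromosomes it was 4.80% and 6.18%, and the part of background in the result was not tested.

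Chromosome 4 had the lowest knockout values. Its last 4 Mb held 23 wild type and 4 knockout hotspots, with 3 shared, and a summed strength of 5735 and 310, 5.41% of the wild type. Wild type strengths there ran from 50 to 826 and knockout strengths from 49 to 154, so the strongest knockout hotspot was near the wild type median of 135.

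The strongest of them lay near Ttc34, a tetratricopeptide repeat gene, at chr4:154797818-154799794. Its strength was 826 for the wild type and 154 for the knockout, 4.45-fold lower in relative strength (log2 -2.15, counting interval -2.41 to -1.90). The hotspot near Tnfrsf14, a receptor gene of the TNF receptor family, at chr4:154912785-154914563, had 753 and 51, 12.2-fold lower (log2 -3.61, -4.10 to -3.13). The most distal hotspot of both lists, near the vomeronasal receptor gene Vmn2r129 and 0.143 Mb from the end, had 121 and 56 (log2 -0.84, -1.39 to -0.30). It was the only knockout hotspot in the last 1 Mb of chromosome 4, where the wild type list had 8.

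Of the 52 wild-type-only hotspots of the last 4 Mb of the 3 ends, 55.8% lay inside genes away from gene ends, against 62.8% on the rest of the chromosomes. The strongest on chromosome 4 was inside Gnb1, a G protein beta subunit gene, with a wild type strength of 576 at chr4:155524672-155527244. Next came 543 at an end of A430005L14Rik, 424 inside Prdm16 (a zinc finger regulator of brown fat identity) and 413 inside Cfap74 (a gene of cilia and flagella). Within 0.6 Mb of the end stood 308 at an end of C1qtnf12, a secreted factor gene, and 304 inside Agrn, which encodes agrin, the organiser of the neuromuscular synapse. All 6 were wild-type-only.

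From 4 to 10 Mb, chromosome 4 had 26 wild type and 55 knockout hotspots with summed strengths of 6751 and 6866, so that the knockout reached 102% of the wild type, as on the rest of the chromosome. The hotspots behind the sum differed, since 65.4% of wild type hotspots were shared against 91.7% on the rest, 69.1% of knockout hotspots were knockout-only against 50.5%, and the median log2 was -0.45 against 0.07. The strongest wild type hotspot of the end, inside Dnajc11 (a mitochondrial co-chaperone gene) and 4.53 Mb from the end, was lower all the same, with 1462 and 334 (log2 -1.86, -2.04 to -1.68). Inside Pex14, a peroxisome import gene, the strength was 823 and 299 (log2 -1.19, -1.38 to -1.0), and near Disp3, a sterol-sensing domain gene, 731 and 427 (log2 -0.51, -0.68 to -0.33). Shared hotspots at or above the wild type list's median were lower both here and elsewhere on the chromosome, with a median log2 of -0.77 over 11 of them in this stretch and -0.41 on the rest of chromosome 4. By contrast, the hotspot near Rere, a nuclear receptor coregulator gene, had 465 and 538 (log2 0.48, 0.30 to 0.66). Of 2 hotspots inside Camta1, a calmodulin-binding transcription activator gene, 1 had 161 and 208 (log2 0.64, 0.33 to 0.95) and the other 183 and 156 (log2 0.04, -0.28 to 0.35), the sign of which turned with strengths as deposited (-0.23). Of this pair, the first alone has an interval wholly above 0.

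Chromosome 9 had 21 wild type and 8 knockout hotspots in its last 4 Mb, with 4 shared, and a summed strength of 3532 and 526, 14.9% of the wild type. The strongest of these was at an end of Tgm4, a transglutaminase gene of the prostate, 46 bp from its start at chr9:123033878-123035696. Its strength was 606 and 72, 6.98-fold lower (log2 -2.80, -3.17 to -2.44). The hotspot inside Snrk, a kinase gene of the AMPK family, had 489 and 75 (log2 -2.44, -2.79 to -2.08). Both keep a place in the knockout list at a strength below its median of 105.

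The 3 most distal wild type hotspots of chromosome 9 were all wild-type-only. They lay near LOC108167694 with 368, inside the chemokine receptor gene Ccr1l1 with 156, and near the chemokine receptor gene Xcr1 with 224, at 0.193, 0.615 and 0.728 Mb from the end. A further wild-type-only hotspot of 245 lay near Lars2, the mitochondrial leucyl-tRNA synthetase gene. The last 4 Mb of chromosome 9 also had 4 knockout-only hotspots, against 1 on chromosome 4 and 0 on chromosome 13, with 94 near Gm39469 at 0.343 Mb, 68 at an end of Lars2, 39 at an end of Tmem42 and 70 at an end of Ano10 (an anoctamin). None of these 4 reached the knockout list's median.

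Between 4 and 10 Mb all 29 wild type hotspots of chromosome 9 were shared (88.1 to 100), and the summed strength was 98.2% of the wild type. The strongest hotspot of the 3 ends, inside the oxysterol-binding protein gene Osbpl10 and 9.50 Mb from the end, had 1943 and 1103 (log2 -0.55, -0.66 to -0.44). The hotspot inside Oxsr1, a stress-response kinase gene 5.33 Mb from the end, had 629 and 171 (log2 -1.61, -1.86 to -1.36). Others were higher in the knockout: near Rbms3, an RNA-binding protein gene, the strength was 112 and 240 (log2 1.37, 1.04 to 1.69), near LOC115486419 it was 55 and 122 (log2 1.42, 0.94 to 1.90), and inside Itga9, an integrin alpha chain gene, 191 and 303 (log2 0.94, 0.67 to 1.20). Lower and higher hotspots thus stood side by side in this stretch.

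Chromosome 13 kept more of its strong hotspots in the knockout list, at low strength. In the last 4 Mb it had 25 wild type and 10 knockout hotspots, all 10 of them shared, and a summed strength of 5890 and 918, 15.6% of the wild type. Of its 10 wild type hotspots at or above the list median, 8 had a partner, against 2 of 10 on chromosome 4 and 2 of 6 on chromosome 9.

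The strongest was near Fgf10, the growth factor gene of limb and lung budding, at chr13:118557083-118559287, with 1056 and 124 (7.07-fold lower, log2 -2.82, -3.09 to -2.55). A second one near Fgf10, nearer the tip, had 613 and 47 (10.8-fold lower, log2 -3.44, -3.90 to -2.97). Near Mrps30, a mitochondrial ribosome gene, the strength was 789 and 183 (log2 -1.84, -2.08 to -1.60). Most of these hotspots lay between genes, as did 13 of the 17 shared hotspots of the last 4 Mb of the 3 ends. The exception in direction was a hotspot near Parp8, an ADP-ribosyltransferase gene 3.56 Mb from the end, with 151 and 198 (log2 0.66, 0.35 to 0.97).

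No knockout hotspot was listed in the last 1 Mb of chromosome 13. The wild type list had 4 there with a summed strength of 402, the strongest with 173 at an end of Tmem267. The last knockout-only hotspot lay 5.58 Mb from the end, and 30 wild type hotspots lay beyond it. On chromosome 4 this distance was 2.36 Mb with 19 wild type hotspots beyond, and on chromosome 9 it was 0.343 Mb with 1.

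Farther in, chromosome 13 stayed lower than chromosomes 4 and 9. From 4 to 10 Mb its knockout sum was 66.9% of the wild type, though chromosomes 18, 14 and 17 had less, at 57.5%, 61.8% and 66.7%. On the rest of chromosome 13 the knockout sum was 80.3% of the wild type. The pair of hotspots inside Mtrex, an RNA helicase gene of nuclear RNA decay, had 967 and 250 (log2 -1.68, -1.89 to -1.47) and 585 and 72 (log2 -2.75, -3.13 to -2.37). Near Isl1, a LIM homeodomain gene, the strength was 896 and 312 (log2 -1.25, -1.44 to -1.06), and inside Ankrd55 it was 1011 and 537 (log2 -0.64, -0.80 to -0.49). Against these, the hotspots near Mier3 with 101 and 179 (log2 1.09, 0.72 to 1.47) and near Actbl2 with 72 and 158 (log2 1.40, 0.98 to 1.83) were higher in the knockout.

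**Figure D3:**
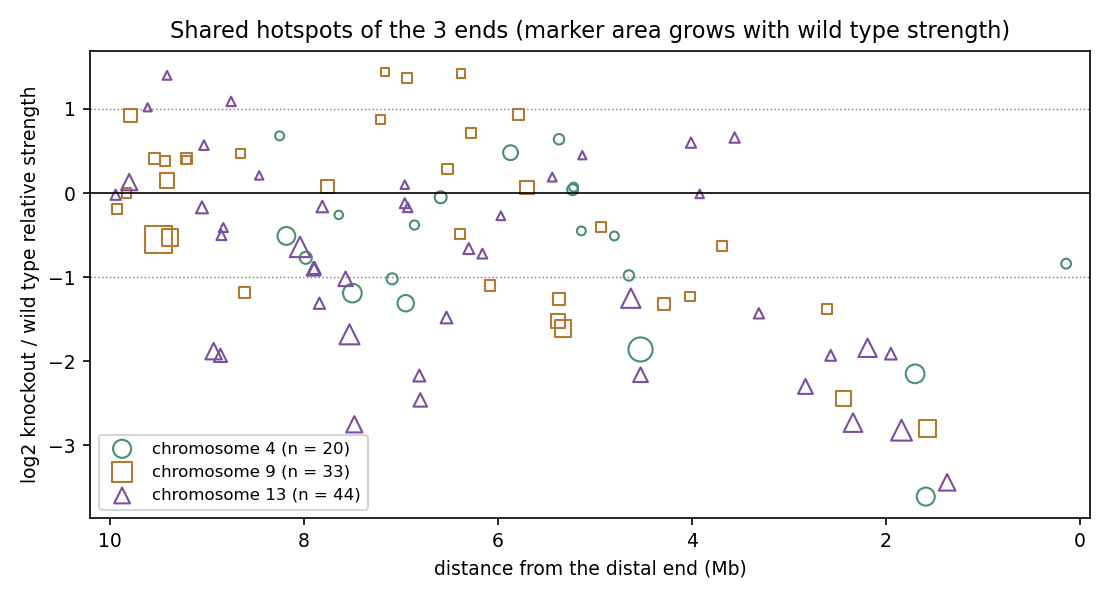
Log2 of knockout over wild type relative strength of the 97 shared hotspots (chromosome 4 n = 20, chromosome 9 n = 33, chromosome 13 n = 44) against distance from the distal end in Mb. Dotted lines stand at 2-fold and marker area grows with wild type strength. Inside 4 Mb, 16 of 17 points lie below 0, and beyond 4 Mb points lie on both sides.

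As a share of its own chromosome's summed strength, which needs no scaling between lists, the last 10 Mb of chromosome 4 held 5.91% (wild type) and 3.42% (knockout). For chromosome 9 the shares were 6.74% and 5.43%, and for chromosome 13 8.95% and 5.57%. The last 4 Mb held 2.71% and 0.148% on chromosome 4, 2.10% and 0.349% on chromosome 9, and 3.26% and 0.656% on chromosome 13. On all 3 chromosomes the share thus differed more in the last 4 Mb than over 10 Mb, by 18.4-fold on chromosome 4, 6.02-fold on chromosome 9 and 4.97-fold on chromosome 13.

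No other 4 Mb stretch of the same chromosomes came close. On chromosome 4 the knockout sum lay between 68.2% and 178% of the wild type in the 37 other windows of 4 Mb, against 5.41% at the end. On chromosome 9 the 29 other windows lay between 56.8% and 225% against 14.9%, and on chromosome 13 the 28 others between 53.0% and 171% against 15.6%. With windows of 10 Mb, 1 of the 11 others of chromosome 9 was lower than the end, at 68.1% against 72.3%. The lowest others of chromosomes 4 and 13 had 81.3% and 69.5%, against 57.5% and 48.2% at the ends. Within the last 4 Mb the lowest window was not always the tip: on chromosome 4 the stretch from 2 to 4 Mb had 3.79% against 5.87% in the last 2 Mb, and from 3 to 4 Mb chromosome 4 had 0% and chromosome 9 11.8%, against 3.40% and 12.6% in the last 1 Mb.

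The other autosomes were lower toward their distal ends too, by less in sum. In the last 4 Mb of the other 16 autosomes, counted back from the last annotated gene, 50.3% (44.8 to 55.8) of 328 wild type hotspots were shared, the knockout sum was 42.0% of the wild type and the median log2 of 165 shared hotspots was -0.88. Background reads there made up 6.56% and 10.5% of the reads, close to the values of the 3 ends. Single ends ranged from 23.1% on chromosome 14 to 72.7% on chromosome 18, with a median of 43.5%, so that chromosomes 4, 9 and 13 were the 3 lowest of 19.

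They were also the 3 lowest in the last 5 Mb, but not in other lengths tried. Over the last 1 Mb, chromosomes 4 and 9 were at places 5 and 7 of the 17 autosomes with a wild type hotspot there. Chromosome 13 had 0%, as did chromosome 5. In the last 2 Mb chromosome 5 was lowest at 0%, with chromosomes 4, 13 and 9 at places 2, 4 and 6. In the last 3 Mb chromosome 9 was at place 4, behind chromosome 14 at 14.8%, and in the last 6 Mb again at place 4. By the share of wild type hotspots with a partner in the last 4 Mb, chromosome 4 was lowest at 13.0%, chromosome 15 had 17.2%, chromosome 9 had 19%, and chromosome 13 with 40.0% was at place 7. Wild type hotspot density did not set the 3 ends apart, with 5.75, 5.25 and 6.25 hotspots per Mb against a median of 5 for the others.

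**Figure D4:**
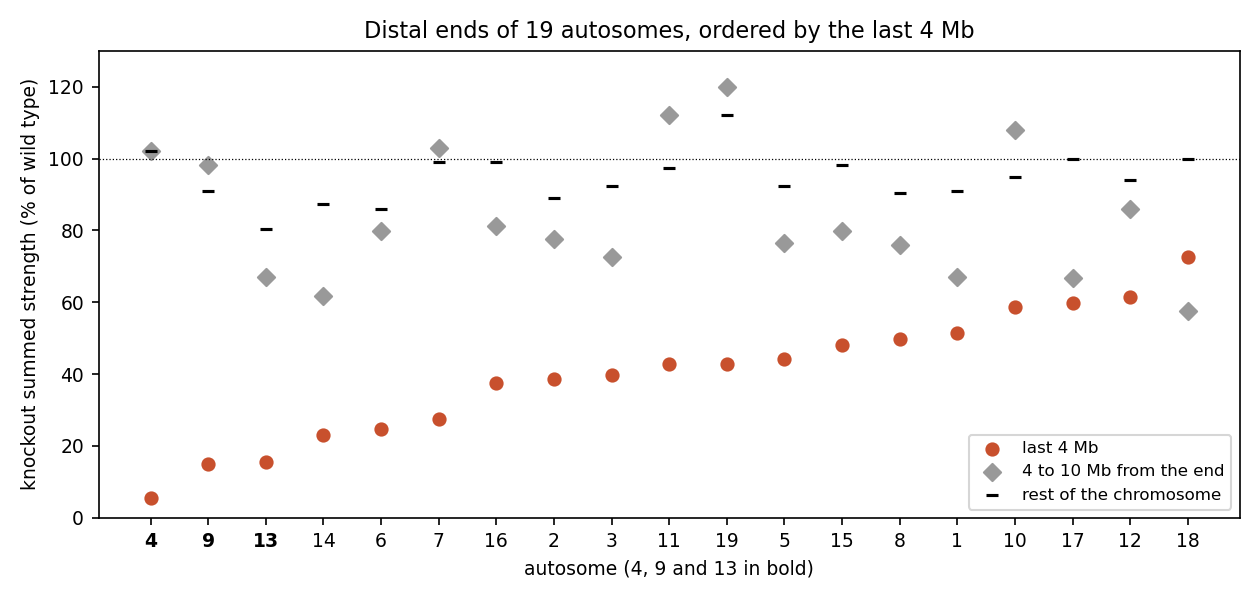
Knockout summed strength as percent of the wild type for each autosome, in the last 4 Mb (circles), from 4 to 10 Mb (diamonds) and on the rest of the chromosome (bars), with autosomes ordered by the circles. Chromosomes 4, 9 and 13 have the lowest circles, at 5.41%, 14.9% and 15.6%, while their bars lie at 102%, 90.9% and 80.3%.

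Genes of the ends were read for the knockout-only hotspots at their ends. Over all autosomes 47.0% of knockout-only hotspots were at a gene end, and 24.8% of protein-coding genes had such a hotspot. From 4 to 10 Mb, 43 of 80 knockout-only hotspots of the 3 ends were at a gene end and 47 of 169 genes, 27.8% (21.2 to 35.2), had one. Nearer the tips, in the last 4 Mb, 4 of 155 genes had one, 2.58% (0.708 to 6.48). These were Wrap73 (a WD repeat protein of the spindle pole) on chromosome 4, with a strength of 49, and Ano10, Lars2 and Tmem42 on chromosome 9, and none of the 25 genes of chromosome 13. At the other 16 autosome ends the last 4 Mb had 63 of 737 genes, 8.55% (6.63 to 10.8), and the stretch from 4 to 10 Mb had 28.6%.

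Wild type hotspots at gene ends of the last 4 Mb went the other way. There, 10 of 155 genes had a wild type hotspot at an end, 6.45%, against 1.78% of 3034 genes on the rest of the 3 chromosomes and 1.09% in the last 4 Mb of the other autosomes. Of the 52 wild-type-only hotspots there, 8 were at a gene end, 15.4%, against 2.99% of those on the rest of the 3 chromosomes. Genes were denser there, with 12.9 per Mb in the last 4 Mb (17.8 on chromosome 4) and 9.39 from 4 to 10 Mb. The part of gene density was not tested. Among the 8 were those at C1qtnf12, Klhl17, Agrn and Dvl1 on chromosome 4 and at Tmem267 on chromosome 13. Klhl17, Dvl1 (a Wnt signalling gene) and the second Agrn hotspot were weak, with strengths of 95, 60 and 65.

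CpG content of the promoters differed little between the tips and the stretch next to them. Of windows of 250 bases before a gene start, 56.9% held at least 10 CpG in the last 4 Mb and 61.8% from 4 to 10 Mb, against 51.3% over all autosomes. Among these CpG-rich windows, 48 of 118 from 4 to 10 Mb, 40.7% (31.7 to 50.1), had a knockout-only hotspot within 1 kb of the start, as did 43.3% over all autosomes. Of those in the last 4 Mb, 3 of 91 did, 3.30% (0.685 to 9.33). The GC box was in 54.4% of windows of the last 4 Mb, 52.4% from 4 to 10 Mb and 43.4% of all windows of this length, the CCAAT box in 33.1%, 34% and 35.3%, and the TATA box (TATAAA, either strand) in 5.0%, 6.81% and 11.7%. The letters of promoters such as Sdf4, Lztfl1 and Zfp131, printed above, belong to the first of these groups.

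**Figure D5:**
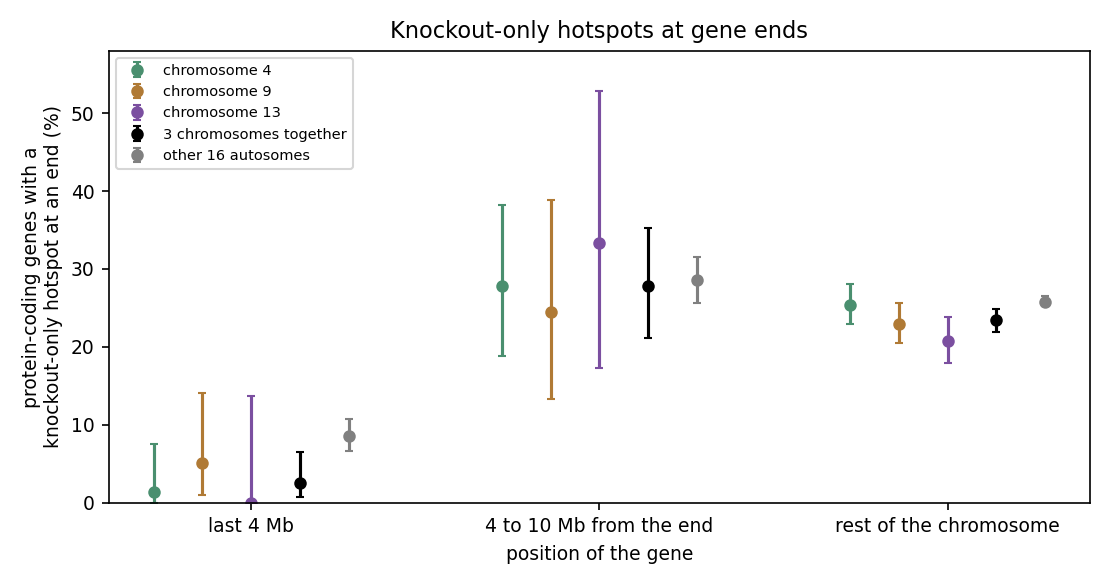
Percent of protein-coding genes with a knockout-only hotspot at most 1 kb from an end, by position of the gene, for each of the 3 chromosomes, the 3 together and the other 16 autosomes. Bars are 95% exact binomial intervals, which cover counting error only. The 3 together lie at 2.58% in the last 4 Mb and at 27.8% from 4 to 10 Mb.

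Gene lists, chosen with earlier results of these data known, were counted by kind of gene. Of 37 housekeeping genes in the ends, 10 of the 19 between 4 and 10 Mb carried a knockout-only hotspot at an end, where 27.8% of all genes did, and 0 of the 18 in the last 4 Mb, where 2.58% of all genes did. The count of 0 is near that share and says nothing about housekeeping genes. The 10 include Eno1 (the glycolytic enolase) with a strength of 175, Pgd (an enzyme of the pentose phosphate pathway) with 113 and Rpsa (a ribosomal protein) with 62. The list's name does not hold for Ddx4, a germ cell RNA helicase, which is among the 10 with 125. Ube4b and Map3k1, also on the list, are not among the 10. Their knockout-only hotspots lay 74 and 77 bp from an annotated start inside the gene, but 1456 and 9199 bp from the gene's ends. Wild type hotspots lay in the bodies of 11 of the 37 genes, in both stretches. Among the 18 in the last 4 Mb these were 5, namely Gnb1, Sdf4, Snrk, Nnt and Paip1, and of these Snrk alone had a knockout hotspot. The share of all genes with a hotspot in the body was not counted. The Nnt gene, for the mitochondrial transhydrogenase, held 3 wild type hotspots with 118, 86 and 83.

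Of 15 developmental regulators, Rere with 70 and Mier3 with 155 carried a knockout-only hotspot at an end, both among the 7 between 4 and 10 Mb, and 0 of the 8 in the last 4 Mb did, near the shares of all genes. The 5 TNF receptor genes had no hotspot of either list in their bodies or at their ends, and of the 11 chemokine receptor genes Ccr1l1 alone had one. Of these genes, 3 of the 5 and 9 of the 11 lie in the last 4 Mb. The share of all genes with a hotspot in the body or at an end was not counted, so these counts say nothing about the 2 families. Scn10a, a sodium channel gene of sensory neurons, had a shared hotspot with 124 and 78. Of the 5 integrin and granzyme genes, all between 4 and 10 Mb, Itga9 alone carried a knockout-only hotspot at an end, with 47. In that stretch 27.8% of all genes did. The immune protease genes Gzma and Gzmk had none.

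Besides these, the strongest knockout-only hotspots of chromosome 4 after Ube4b were at an end of Phf13, a reader of methylated histone H3, with 244, and at an end of Acot7, an acyl-CoA thioesterase gene, with 203. They lie 4.50 and 4.32 Mb from the end, close to the last 4 Mb, where the knockout list had few hotspots. On chromosome 13 the next after Gpbp1 were near Mier3 with 236 and inside Map3k1, a kinase gene, 77 bp from its start, with 223. No knockout-only hotspot of the last 4 Mb of the 3 ends exceeded 94.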

How the data were processed

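DMC1 hotspots of testis were taken from 2 deposited lists, 1 per genotype, made on mm10 with CASAVA, BWA, Bowtie2 and MACS2 among the tools, per the submitters' processing notes, which give no versions or roles. Per the file headers, each hotspot has a whole-number read count, a background estimate, a strength (a signal, reads minus background), a percent of the summed strength and a rank score. Whether the authors pooled animals, and whether depth was equalised, is stated by no source used here. Members and lists were chosen with earlier results of these data known.

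Hotspots were paired with bedtools 2.31.1 (overlap of at least 1 bp). Shares have exact Clopper-Pearson intervals (scipy 1.17.1), and log2 intervals take the reads as Poisson and the background as exact. Genes came from RefSeq GRCm38.p6, and 279 of the 324 protein-coding genes of the ends had a promoter window. The pairing and interval steps were checked on made-up data. Hotspots named were, for each end, the most distal 3 of each list, the strongest 5 of the wild type, the 3 largest increases and decreases, the 3 strongest of each unshared class, and those of the last 1 Mb at or above their list's median; others named were chosen after their values were seen. Starts are printed as the lists give them. Alternatives covered thresholds, overlap, scaling, length of the end and gene ends. Some hotspots and genes that the naming rule and lists take are not reported here.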

Additional observations from a re-analysis of the deposited data

How the results depend on the processing

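Of 126 alternative values 74 stayed close and 52 moved, and 1 changed sign (chromosome 9, below). The 27 named shared hotspots kept their sign in 79 of 81 rescaled values; the exceptions are the Camta1 hotspot 5.23 Mb from the end of chromosome 4, which had a log2 of 0.04, -0.23 with strengths as deposited and -0.15 as a share of the summed strength. No paired analysis was possible because each genotype has 1 list with no replicate columns, and for the same reason no replicate could be left out. Calling depth is a limit: unlisted hotspots may lie below the threshold of a list. The cause of each move below was not tested beyond the smaller number of hotspots that the setting leaves.

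With a strength of at least 100, wild type hotspots per Mb of the end were 2.80 on chromosome 4 and 4.10 on chromosome 13 (4.90 and 6.90 before), and knockout ones 2.5, 2.30 and 2.90 on chromosomes 4, 9 and 13 (5.90, 6.00 and 6.30 before). With the knockout list cut to the size of the wild type list they were 3, 3 and 3.20, and in the last 5 Mb 2.40, 3.20 and 2.60. The share of wild type hotspots with a partner was 41.7% on chromosome 9 and 43.9% on chromosome 13 at a strength of at least 100. In the last 5 Mb it was 22.2%, 29.2% and 46.4%, and the share of knockout hotspots with a partner was 50% on chromosome 4 and 100% on chromosome 13.

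The median log2 of the end minus the rest of the chromosome (-0.58, -0.04 and -0.75) was -1.49, -1.35 and -1.97 in the last 5 Mb, and 0.41 on chromosome 9 with strengths of at least 100 in both lists, so the chromosome 9 value over 10 Mb has no settled sign. The log2 change of the end's share of its chromosome (-0.79, -0.31 and -0.68) was -0.70, -0.04 and -0.74 with shared hotspots only, -0.96, -0.48 and -0.85 at a strength of at least 100, -1.01, -0.21 and -0.73 without hotspots at gene ends, and -2.46, -1.74 and -1.93 in the last 5 Mb.

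In the last 1 Mb the knockout share of chromosome strength was 3.42% of the wild type share on chromosome 4, 14% on chromosome 9 and 0% on chromosome 13. For chromosome 4 it was 65.1% with shared hotspots only, which leaves 1 hotspot, 0% at a strength of at least 100, 5.99% without hotspots at gene ends and 5.92% in the last 2 Mb. For chromosome 9 it was 0% at a strength of at least 100, and for chromosome 13 10.7% in the last 2 Mb. With shared hotspots only, no value could be had for chromosomes 9 and 13, which have none there.

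Of the shared hotspots of the 3 ends, 11 were over 2-fold lower with strengths of at least 100 in both lists, 20 were over 3-fold lower, 14 were over 1.5-fold higher and 0 over 3-fold higher. In the last 4 Mb at a strength of at least 100, 11.9% of wild type hotspots had a partner, the knockout sum was 5.72% of the wild type, knockout density was 0.417 per Mb (1.83 before) and 0% of genes carried a knockout-only one at an end. The sum was 8.38%, 10.1% and 20.8% of the wild type in the last 2, 3 and 5 Mb, and 13.3% counted back from the last annotated gene.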
